A study of Mus musculus with 4 samples.

Results

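The 37 genes described here encode Ras GTPases, the kinases of the MAP kinase cascades and the proteins that switch these cascades off, in mouse regulatory T cells. They were chosen by name from textbook roles, but with earlier results of these data known. All 37 were found among the 50600 genes of the count tables. The cells were labelled as primary regulatory T cells of the C57BL/6NJ strain and formed 1 group of 4 libraries, replicates 1 to 4, with no treatment, genotype or time point named in the labels and with age and sex not recorded. The labels link a protocol for differentiating CD4+ T cells, name the assay as total RNA-seq although the linked library protocol is named for polyadenylated RNA, and give all 4 biosamples the same donor record. In the table headers, the aligned files have names containing activated and 48h, reported here only as a note. With a single group the design implies no comparison of conditions, so the questions are how strongly each gene of the cascades was expressed, in what order, and how far the 4 libraries differed.

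Ras is a small GTPase that is active while bound to GTP. In T cells it is loaded with GTP below the antigen receptor, and active Ras recruits the Raf kinases, which phosphorylate the MAP2 kinases of ERK. Parallel cascades of MAP3 kinases and MAP2 kinases end in the p38 and JNK kinases. The signal is ended at several levels: GTPase-activating proteins (GAPs) return Ras to the GDP-bound state, Sprouty and Spred proteins restrain the step between Ras and Raf, and dual-specificity phosphatases (Dusp) remove the activating phosphates from ERK, p38 and JNK. Several Dusp and Sprouty genes are themselves known targets of ERK signalling. Messenger RNA levels, which were measured here, say nothing of the phosphorylation or GTP loading of any of these proteins.

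The libraries held between 43821767 and 73819468 counts of fragments in genes. Levels are given as TPM, the usual length-corrected unit of RNA-seq. It is the count divided by the summed exon length of the gene and scaled to the same total in every library, so that genes of different length can be compared. The 6 general T cell and the 6 regulatory T cell markers were all expressed, with Foxp3, the factor that defines the lineage, at a mean TPM of 289. Their summed TPM ranged from 3757 to 3870 and from 3981 to 4035. The regulatory T cell markers were uneven, from Il2ra at a mean TPM of 1488 down to Ikzf2 at 13.2. Of the 30 markers of other cells, 2 reached a TPM of 1 in all libraries, Cd79b of B cells at 3.11 and Adgre1 of macrophages at 1.30, and the summed TPM of any such list was at most 4.11. Lyz2 of macrophages and Ncr1 of natural killer cells were at 0 counts in every library. Replicates 1 and 2 stood apart from replicates 3 and 4 in sex-linked genes, with Xist at a TPM of 172 and 145 against 0.255 and 0.367, and the Y-linked Ddx3y at 0.152 and 0.0781 against 45.1 and 45.0. These are the patterns of female and of male cells, so the libraries were not all from a single animal despite the shared donor record. Araf was the only one of the 37 genes on the X chromosome, and its TPM in replicates 1 and 2 (77.3 and 69.0) enclosed that in replicates 3 and 4 (72.9 and 74.5). Some of the 37 genes, such as Dusp2 and Rasa1, did separate replicates 1 and 2 from replicates 3 and 4, while others, like Araf, did not. A difference between the sexes was not tested.

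Nearly the whole set was transcribed. A TPM of 1 was reached in each of the 4 libraries by 36 of the 37 genes and by Spry2 in replicate 1 alone, while 22.9% of all genes and 47.2% of protein-coding genes passed the same limit. Because the genes were chosen with earlier results of these data known, the high share may reflect that choice and is not a result about the pathway. Of 91 further pathway genes found, 75 passed. A TPM of 10 was reached in every library by 32 genes and a TPM of 100 by 7, and no gene had a count of 0 in any library. The median of the 37 mean levels was a TPM of 41.9, beside 33.7 for all protein-coding genes that passed the limit, and 21 of the 37 lay above that value. The 37 genes together reached a summed TPM of 3254, 3178, 3287 and 3241 in replicates 1 to 4, and the 8 Dusp genes alone made up 51.9 ± 0.77% (SD, n = 4) of it. Ordered by mean, the levels of neighbours overlapped between libraries in 17 of 36 neighbouring pairs. Some of these pairs, such as Hras above Rasa1, still kept their order in all 4 libraries, while others did not. The order of some genes, with or without overlap, also depends on the length used, as given below.

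**Figure D1:**
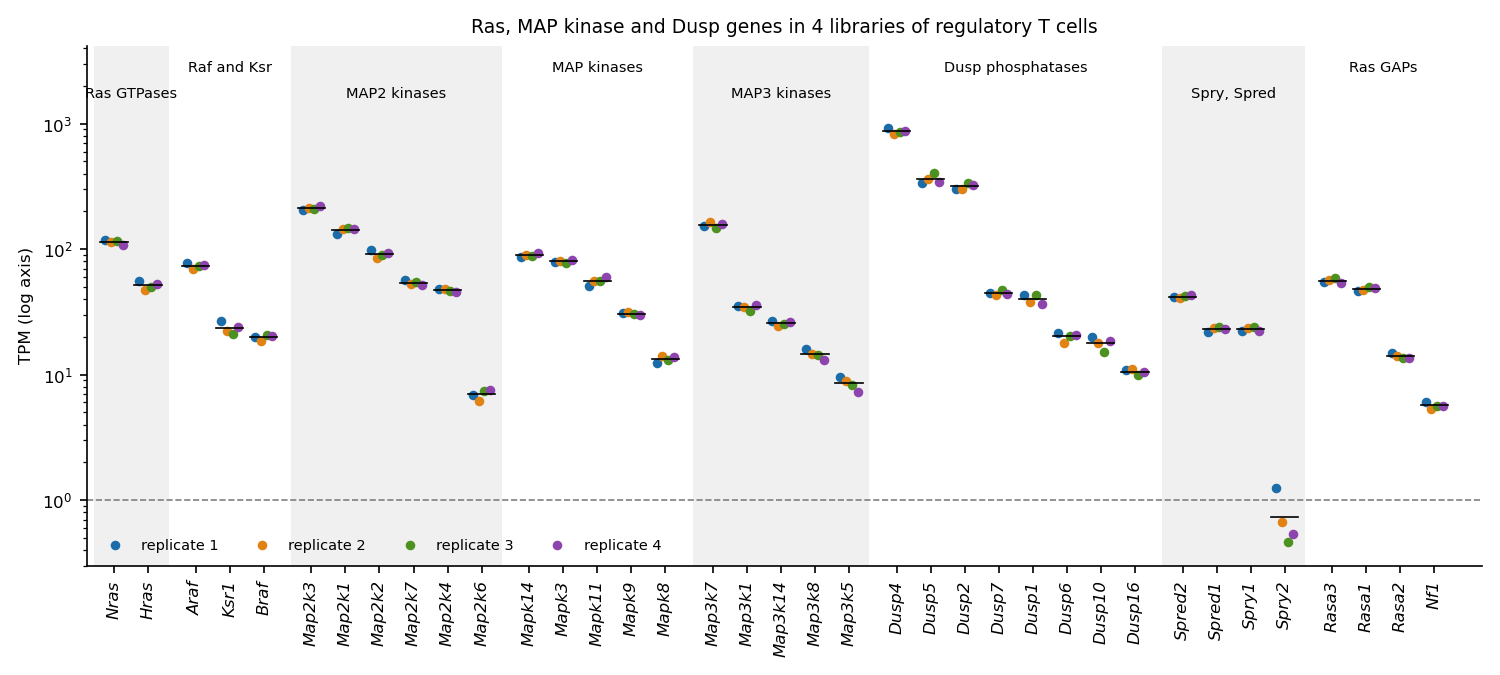
TPM on a log axis (vertical) of each of the 37 genes (horizontal), grouped by role, with 1 point per library, a bar at the mean and a dashed line at a TPM of 1. The points of a gene lie close together except for Spry2, the lowest gene, and the highest level is that of Dusp4, at a mean TPM of 870.0.

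The phosphatases held the highest levels. Dusp4, a nuclear phosphatase of ERK, JNK and p38 (ENSMUSG00000031530.6, mm10 chromosome 8, 34807297 to 34819894), had a TPM of 916, 830.3, 864 and 869 in replicates 1 to 4. Its mean of 870.0 ± 35.2 (SD, n = 4) placed it 127th of the 50600 genes, with replicate 1 the highest and replicate 2 the lowest. Dusp5, a nuclear phosphatase of ERK (mm10 chromosome 19, 53529109 to 53542431), followed with a TPM of 338, 363, 402 and 345. Replicate 3 was the highest library, and the mean was 362 ± 28.5. Dusp2, the nuclear phosphatase first described in activated T cells, had a TPM of 303, 304, 335 and 322, with a mean of 316 ± 15.8 and the same library at the top.

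Among the nuclear phosphatases Dusp1 stood lowest. This immediate-early gene, whose protein prefers p38 and JNK, had a TPM of 42.8, 37.7, 43.3 and 36.7, and replicates 1 and 3 lay above replicates 2 and 4. Dusp4 exceeded it by a factor of 21.7 in the geometric mean, a log2 ratio of Dusp1 to Dusp4 of -4.44 ± 0.10 (SD, n = 4), with the same direction in 4 of 4 libraries. Summed, the nuclear Dusp1, Dusp2, Dusp4 and Dusp5 reached a TPM of 1588 ± 46.1, which was 94.4 ± 0.16% of the TPM of the 8 Dusp genes. This grouping by location, and those by cascade given further on, follow textbook classes but were formed after the values had been seen.

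The other phosphatases were far less abundant. Dusp6 and Dusp7, which hold ERK in the cytoplasm, summed to a TPM of 64.9 ± 2.98, or 3.86% of the Dusp total, and Dusp10 and Dusp16, which act mainly on p38 and JNK, to 28.4 ± 2.43, or 1.69%. Dusp6, the phosphatase often read as a gauge of ERK activity, had a mean TPM of 20.1 ± 1.51 and 21.6 in its highest library, replicate 1, and so was under Dusp7 (44.6, 42.8, 47.5 and 44.1) in every library. The lowest of the 8 was Dusp16, at 10.9, 11.1, 9.89 and 10.5, a range within which no library stood apart. Dusp10 had one of the 3 largest coefficients of variation of the set, with a TPM of 19.9, 17.9, 15.1 and 18.4. Replicate 3 was its lowest library.

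Promoter windows show what sequence lies at the start sites of these genes. RefSeq windows on GRCm38.p6, each from 250 bases before to 50 bases after an annotated start site, were matched by symbol for 34 of the 37 genes and gave 41 windows. Dusp4, Mapk3 and Map3k8 were not among them. The windows of 5 genes are printed 5′ to 3′ on the strand of the gene, because these genes span the range from the most abundant phosphatases with an entry to the least abundant feedback inhibitor. Capitals mark every match, on either strand, to the TATA box (TATAAA), AP-1 (TGANTCA), the cyclic AMP response element CRE (TGACGTCA), ETS (CCGGAAG), EGR (GCGNGGGCG), NF-kappaB (GGGA, any 4 bases, CC), the E-box (CACGTG) and the CArG box, the sequence bound by serum response factor. The CArG box was added to the search after the Dusp5 window had been read. Dusp5 lies at chr19:53528895-53529194 (plus strand), Dusp2 at chr2:127335909-127336208 (plus), Dusp1 at chr17:26508423-26508722 (minus), Dusp6 at chr10:99262981-99263280 (plus) and Spry2 at chr14:105896770-105897069 (minus).
Dusp5: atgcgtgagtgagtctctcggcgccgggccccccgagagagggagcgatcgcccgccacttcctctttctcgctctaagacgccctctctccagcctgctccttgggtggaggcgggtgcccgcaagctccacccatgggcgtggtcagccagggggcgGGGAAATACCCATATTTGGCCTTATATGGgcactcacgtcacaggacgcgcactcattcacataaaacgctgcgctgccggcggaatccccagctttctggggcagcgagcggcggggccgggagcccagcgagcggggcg
Dusp2: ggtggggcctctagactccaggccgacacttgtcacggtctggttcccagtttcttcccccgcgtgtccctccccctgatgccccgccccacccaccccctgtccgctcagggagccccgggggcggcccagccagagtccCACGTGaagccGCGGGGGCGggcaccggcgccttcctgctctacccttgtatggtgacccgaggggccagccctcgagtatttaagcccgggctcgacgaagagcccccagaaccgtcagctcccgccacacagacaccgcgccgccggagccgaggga
Dusp1: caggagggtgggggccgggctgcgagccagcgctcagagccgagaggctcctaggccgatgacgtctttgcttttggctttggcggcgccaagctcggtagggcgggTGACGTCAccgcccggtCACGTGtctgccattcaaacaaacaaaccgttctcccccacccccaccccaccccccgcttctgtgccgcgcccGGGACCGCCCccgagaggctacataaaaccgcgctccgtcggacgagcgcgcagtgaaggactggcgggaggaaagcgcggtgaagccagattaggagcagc
Dusp6: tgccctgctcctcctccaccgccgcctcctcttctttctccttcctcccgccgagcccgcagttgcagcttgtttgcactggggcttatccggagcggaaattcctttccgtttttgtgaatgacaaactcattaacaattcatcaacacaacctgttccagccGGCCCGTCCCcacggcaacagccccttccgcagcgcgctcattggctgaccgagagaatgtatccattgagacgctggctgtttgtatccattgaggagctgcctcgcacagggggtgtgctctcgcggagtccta
Spry2: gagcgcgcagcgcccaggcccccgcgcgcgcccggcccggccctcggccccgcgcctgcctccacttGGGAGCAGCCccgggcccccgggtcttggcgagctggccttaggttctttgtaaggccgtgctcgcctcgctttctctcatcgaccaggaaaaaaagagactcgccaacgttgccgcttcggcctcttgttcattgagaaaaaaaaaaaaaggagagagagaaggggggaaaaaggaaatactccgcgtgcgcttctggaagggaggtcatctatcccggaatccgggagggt

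In the Dusp5 window 2 CArG boxes stood end to end, their first bases 82 and 72 bases before the start site, and the last base of an NF-kappaB match was the first base of the CArG box farther from the start. Of all 32851 windows, 1.63% held a CArG box, beside 2.44% of the 41 windows of these genes, and Dusp5 was the only one of the 34 genes with one. Because this motif was added after the Dusp5 window had been read, finding it there is not a result. The Dusp2 window held an E-box and an EGR match, 109 and 98 bases before the start, and the Dusp1 window held a CRE, an E-box and an NF-kappaB match, 143, 126 and 52 bases before it. The Dusp6 and Spry2 windows held 1 NF-kappaB match each, at 86 and 183 bases.

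Over all 34 genes the matches were uneven. EGR was found for Dusp2, Dusp16 and Map3k1, CRE for Braf and Dusp1, and the E-box for Dusp1, Dusp2 and Nras. As a share of the 41 windows of these genes, beside the share of all windows, EGR was in 7.32% (5.55%), CRE in 4.88% (1.79%) and the E-box in 7.32% (7.15%). AP-1 was in 7.32% (7.81%), ETS in 4.88% (8.86%) and TATA in 4.88% (13.6%). NF-kappaB was in 31.7% (20.7%), and the GC box (GGGCGG), which is not capitalised above, in 75.6% (35.7%). The windows of the 34 genes had a median GC content of 65.3% and 28 CpG, beside 52.7% and 7 over all windows. These matches describe letters in a window and are not evidence of a factor bound there.

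The Sprouty and Spred genes ranged from moderate levels to the lowest of the set. Spred2, which blocks Raf activation at the membrane, had a TPM of 41.2, 41.2, 42.4 and 42.8, the smallest coefficient of variation of the 37 genes at 1.94%. Spred1 was lower, at a mean of 23.2 ± 0.894, and close to Spry1, with 22.3, 23.5, 24.1 and 22.3 (mean 23.1 ± 0.905). Spry2, an inhibitor of receptor signalling and a known ERK target (mm10 chromosome 14, 105891949 to 105896819), had a TPM of 1.25, 0.668, 0.465 and 0.541, from 33, 24, 21 and 17 counts. Replicate 1 was the only library above 1, the 3 counts that set the floor correspond to at most 0.114, and its coefficient of variation of 48.8% was the largest of the set. Spry1 exceeded Spry2 by a factor of 34.0 in the geometric mean (log2 ratio 5.09 ± 0.67, SD, n = 4), in 4 of 4 libraries.

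At the Ras step, Nras was the more abundant of the 2 Ras genes in the set. Its TPM was 119, 114, 117 and 108, beside 55.4, 47.5, 50.2 and 52.8 for Hras, and the 2 ranges did not overlap. The log2 ratio of Hras to Nras was -1.15 ± 0.11 (SD, n = 4).

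Of the kinases that bind Ras, Araf led the set, with a TPM of 77.3, 69.0, 72.9 and 74.5, or a mean of 133 with the longest transcript as the length. Braf, the Raf kinase with the highest basal activity, was lowest, at 20.0, 18.4, 20.7 and 20.5, and the scaffold Ksr1, which joins Raf to its substrates, lay just above it at 26.8, 22.2, 21.1 and 24.0. Ksr1 was above Braf in every library, although the lowest Ksr1 value was within 1 TPM of the highest Braf value.

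The GAPs that turn Ras off were led by Rasa3, which also acts on Rap1, at a TPM of 54.9, 57.0, 58.7 and 53.5. Rasa1 followed at a mean of 47.9 ± 1.62, then Rasa2 at 14.1 ± 0.562. Nf1, which encodes neurofibromin, was lowest, at 6.10, 5.36, 5.65 and 5.65. Together the 4 GAPs summed to a TPM of 124 ± 2.80, of which Rasa3 held 45.3%, Rasa1 38.8%, Rasa2 11.4% and Nf1 4.60%. The order of Rasa3 and Rasa1 depends on the length used. Their log2 ratio was 0.22 ± 0.06 with the summed exon length and -0.24 with the longest annotated transcript, and the mean TPM of Rasa2 was 26.8 with the latter.

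MAP2 kinases of all 3 cascades were present at different levels. Map2k3, a kinase of p38, was the most abundant of the 6, at a TPM of 207, 215, 209 and 221. Map2k6, which also acts on p38, was the least abundant, at 6.92, 6.13, 7.36 and 7.61. Map2k3 thus exceeded Map2k6 by a factor of 30.5 (log2 ratio 4.93 ± 0.14, SD, n = 4) and made up 96.8% of their sum. For ERK, Map2k1 had a TPM of 132, 144, 147 and 145 and Map2k2 of 98.8, 85.2, 90.7 and 93.6, which did not overlap. For JNK, Map2k4 (48.2, 48.5, 46.7 and 45.9) and Map2k7 (57.3, 53.1, 54.5 and 51.9) were closer together, with Map2k7 higher in 4 of 4 libraries.

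Both of these orders turned with the length used. The log2 ratio of Map2k2 to Map2k1 was -0.63 ± 0.15 with the summed exon length and 0.13 with the longest annotated transcript, which raised the mean TPM of Map2k2 from 92.1 to 171. For Map2k7 to Map2k4 the values were 0.20 ± 0.05 and -0.02. Map2k7 also shares 35.2% of its exon bases with Gm49320 on the same strand. Fragments there cannot be assigned to either gene, so its level is uncertain.

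All 3 groups of MAP kinases were expressed. Mapk14, the p38 alpha kinase, was the highest of the 5 in the set, at a TPM of 86.9, 90.5, 87.9 and 92.5, and Mapk8, which encodes a JNK, the lowest, at 12.5, 14.1, 13.0 and 13.7. Mapk3, an ERK, lay at 79.0, 80.3, 77.5 and 82.7, below Mapk14 in every library. Mapk11, the p38 beta kinase, had a TPM of 50.5, 55.7, 56.0 and 59.9, and Mapk14 exceeded it in every library (log2 ratio 0.69 ± 0.07, SD, n = 4). Mapk9, the second JNK, had one of the 3 smallest coefficients of variation, with 31.0, 31.4, 30.3 and 30.0, and held 69.7% of the JNK TPM.

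Summed by cascade, the MAP2 kinases of ERK (234 ± 4.74) were only slightly above those of p38 (219.8 ± 6.61) and both were above those of JNK (102 ± 3.12). The order was the same with the longest transcript as the length (328, 263 and 93.7). At the next tier the sums were 145 ± 6.21 for p38 and 44.0 ± 1.01 for JNK, or 127 and 52.0 with that length. The sums describe messenger RNA and compare no kinase activity.

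**Figure D2:**
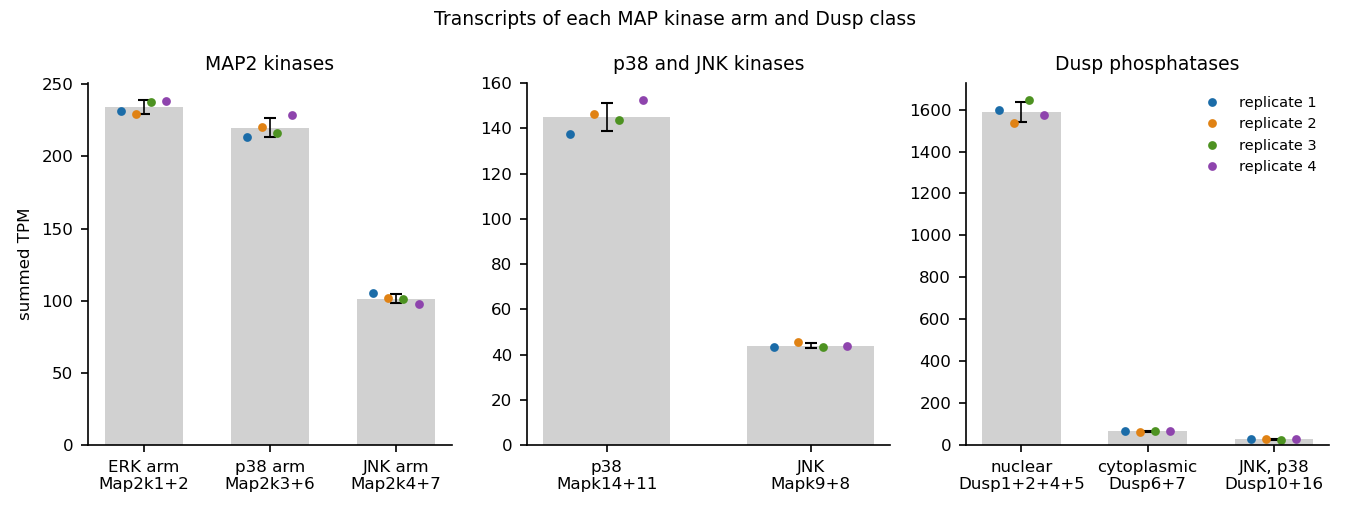
Summed TPM (vertical, a separate scale in each panel) of the MAP2 kinases, the p38 and JNK kinases and the Dusp classes (horizontal), with bars at the mean, error bars of 1 SD and 1 point per library (n = 4). The nuclear Dusp genes reach a mean of 1588, and at the tier of the MAP kinases p38 lies at 145 and JNK at 44.0.

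MAP3 kinases start the stress cascades. Map3k7, the TAK1 kinase that also feeds NF-kappaB, was the highest of the 5 at a TPM of 152, 164, 149 and 157, and Map3k5, the ASK1 kinase that responds to oxidative stress, the lowest at 9.57, 8.86, 8.34 and 7.23. Map3k5 had one of the 3 largest coefficients of variation, with replicate 1 at the top and replicate 4 at the bottom. Map3k8, which activates the MAP2 kinases of ERK and is held by the product of Nfkb1, had a TPM of 16.2, 14.5, 14.2 and 13.1. Map3k1, an activator of the JNK cascade, and Map3k14, the NIK kinase of the non-canonical NF-kappaB pathway, lay between at means of 34.5 ± 1.53 and 25.7 ± 0.948.

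Within 16 pairs of related genes every log2 ratio had the same sign in 4 of 4 libraries. An exact sign-flip permutation test (two-sided) over 4 libraries cannot give a p under 0.125, and all 16 pairs gave that value, also after Benjamini-Hochberg adjustment, so the test cannot pass a threshold of 0.05 here. The ratios beyond those above were 1.88 ± 0.06 for Araf to Braf, 1.20 ± 0.08 for Mapk9 to Mapk8, 0.75 ± 0.12 for Dusp10 to Dusp16, -1.15 ± 0.10 for Dusp6 to Dusp7 and -0.86 ± 0.05 for Spred1 to Spred2 (mean log2 ± SD, n = 4). Relative to Rasa1, Rasa2 was at -1.77 ± 0.10 and Nf1 at -3.08 ± 0.10. Dusp2 to Dusp5 was at -0.19 ± 0.08, and at 0.11 with the longest transcript as the length, so which of these 2 is the more abundant is not settled.

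**Figure D3:**
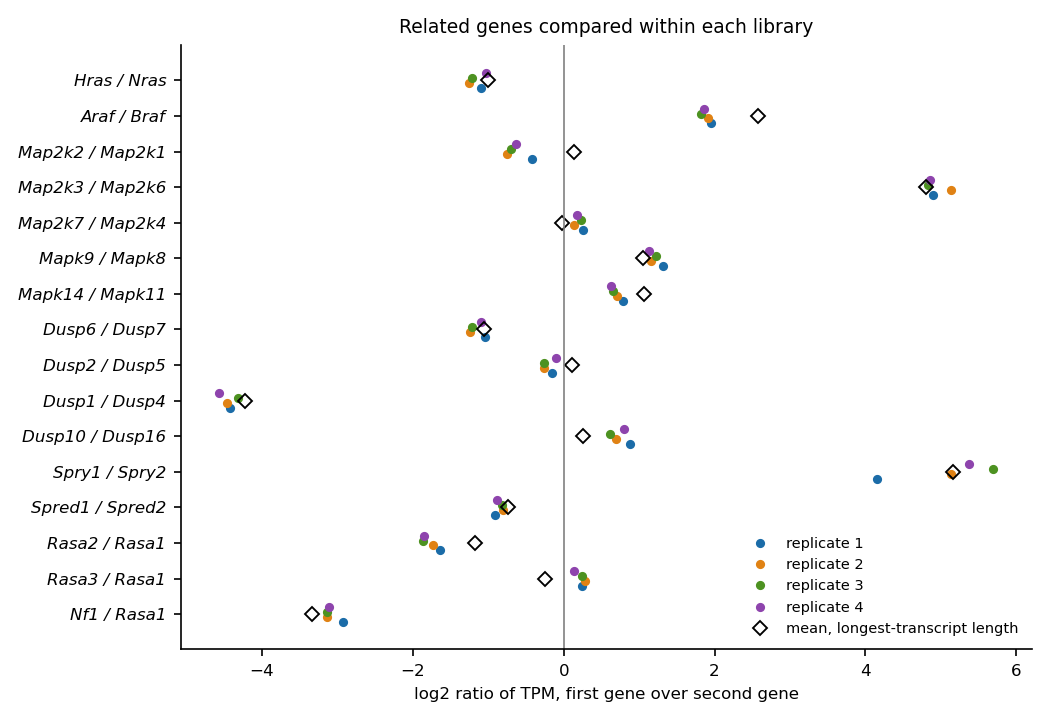
Log2 ratio of TPM (horizontal) within each of 16 pairs of related genes (vertical), with 1 point per library and an open diamond at the mean with the longest transcript as the length. Most pairs lie far from 0, and for Map2k2 to Map2k1, Map2k7 to Map2k4, Dusp2 to Dusp5 and Rasa3 to Rasa1 the diamond lies on the other side of 0 from the points.

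The spread between the 4 libraries was described by a comparison of each library with the rest and by coefficients of variation. Each replicate was compared with the other 3 by edgeR's quasi-likelihood test over 12917 genes, which assumes that the lone library varies like the others. Those 3 always included libraries of both sexes by Xist and Ddx3y, so any difference between the sexes is part of the spread that the test uses. None of the 37 genes was called at a Benjamini-Hochberg adjusted p under 0.05 for any replicate, beside 0.0697%, 0%, 0.0232% and 0% of all genes tested for replicates 1 to 4, and DESeq2 also called 0 of the 37, of which only 18 received an adjusted p from it for replicate 2. With so few calls over all genes, 0 of 37 is near the background and is not a result about these genes, and the number of all genes called for replicate 1 moved from 9 to between 23 and 341 when 1 of the other libraries was left out. At an unadjusted edgeR p under 0.05 there were 3, 1, 1 and 0 of the 37 genes, beside 9.31%, 6.78%, 2.31% and 2.49% of all genes. For replicate 1 these were Ksr1 (log2 fold change 0.25, SE 0.09, adjusted p 0.37 by edgeR), Spry2 (1.16, SE 0.52, adjusted p 0.47) and Map2k1 (-0.14, SE 0.07, adjusted p 0.51). For replicate 2 it was Map2k2 (-0.15, SE 0.06, adjusted p 0.72), and for replicate 3 Dusp5 (0.21, SE 0.09, adjusted p 1.00). The median coefficient of variation of the 37 genes was 4.68%, beside 5.97% for expressed protein-coding genes. The median biological coefficient of variation estimated by edgeR was 0.0577, beside 0.0734 over all genes tested, and 7 of the 37 lay above the latter value. These medians are not matched for abundance, on which the spread depends. For Spred1, the gene at the median of the 37, the trend of edgeR with abundance gave 0.0613 beside its own 0.0577. The lower medians are therefore not a result about these genes.

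**Figure D4:**
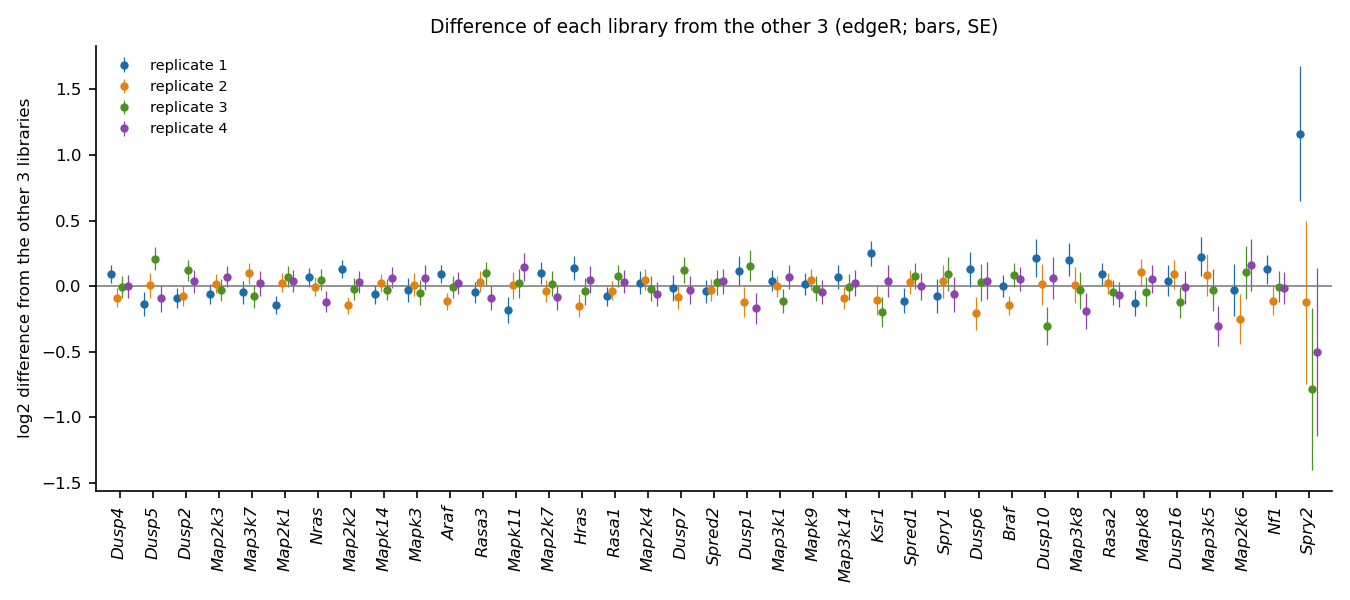
Log2 fold change by edgeR of each replicate against the other 3 (vertical) for the 37 genes in order of mean TPM (horizontal), with 1 point per replicate and bars of 1 SE. Nearly all points lie near 0, and the point farthest out is Spry2 in replicate 1, at 1.16.

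The wider pathway gives the surroundings of these genes. Of 92 further genes listed by role, 91 were found and 75 passed the same TPM limit as above in every library, and 0 of the 85 that could be tested were called for any replicate at an adjusted p under 0.05 by edgeR. Upstream, 9 of 11 adaptors and exchange factors were expressed, with the adaptor Lat highest at a mean TPM of 448 ± 20.5 while the exchange factor Rasgrp3, the lowest of the 11 at 0.993, missed the limit. Of the other Ras genes 4 of 5 were expressed, and Mras, at 0.0351, was not. Among the other Raf, MAP2 and MAP kinases it was 9 of 14, and Mapk10, the neuronal JNK, had 0 counts in every library. Of the other MAP3 kinases and their partners, 14 of 16 were expressed. Nfkb1 was the highest of the 16, at 340.5 ± 15.7 (782 with the longest transcript as the length), and Map3k9, which missed the limit, the lowest at 0.328 (0.604).

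The remaining inhibitors and the outputs differed in how complete they were. Among the other Dusp genes 9 of 11 were expressed. Dusp11, an RNA phosphatase, was the highest of the 11 at 80.8 ± 2.17, and Dusp8, which missed the limit, the lowest at 0.0919. Among the other GAPs and inhibitors it was 5 of 8, with Rasal3, a GAP of blood cells, the highest at 226 ± 8.38. Rasal2, at 0.792, was the lowest of the 8 and missed the limit. All 10 kinases downstream of ERK and p38 were expressed, from Mknk2, which phosphorylates a translation factor, at 670.4 ± 47.7 to Rps6ka2 at 2.91. Of 16 genes listed for the transcriptional output of ERK signalling, 15 were expressed. The list joins known target genes with Elk1, Elk3, Elk4 and Srf, which encode transcription factors of this response and all passed the limit. The immediate-early gene Ier2 was the highest at 748 ± 33.2, and Ccnd1, the 1 that missed the limit, was at 0.485. The following outputs are named after their values had been seen. Egr1 and Egr3, which encode zinc finger factors induced by ERK, had means of 122 ± 6.99 and 200.4 ± 21.6 (56.9 for Egr3 with the longest transcript as the length), while Fos had 2.53 ± 0.364. Etv4 and Etv5, ETS factors used with Dusp6 and the Sprouty genes as readouts of ERK in other tissues, had means of 7.60 and 6.40.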

How the data were processed

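Fragments per gene were counted by the authors with featureCounts 1.4.6-p4 on GENCODE M13 exons, as read pairs with both ends aligned and reverse-stranded, per the file headers. The labels give mm10. For the aligner, a version was not given in the sources used. Dividing the deposited counts by exon length gave TPM. Symbols were matched by Ensembl identifier to GENCODE M21 (50376 of 50600 genes). Totals were 43821767, 58696937, 73819468 and 52005209 counts for replicates 1 to 4. A gene at 0 could have up to 3 counts, which covers counting error only. No pair of libraries agreed within sampling noise (chi-square per degree of freedom 11.1 to 24.4 over 14052 genes). The labels give separate biosamples and 1 donor record but no animals or cultures, although the sex-linked genes show that the libraries were of both sexes. The p-values therefore measure only the spread between these samples, which includes that between the sexes and part of which may be technical.

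Tests used edgeR 4.0.16 in R 4.3.3 (TMM, filterByExpr, quasi-likelihood, Benjamini-Hochberg adjustment at 0.05), with DESeq2 1.42.0 as an alternative. The edgeR test alone was run on simulated data, for replicate 1 against the other 3. Other alternatives were upper-quartile scaling, no filter, other TPM limits, a pseudocount, the length of the longest GENCODE M21 transcript, TPM over protein-coding genes alone and leaving out each replicate. The 37 genes and all lists were chosen with earlier results of these data known. Values per library are given for the highest and lowest gene of each role, the 3 with the largest and the 3 with the smallest coefficient of variation and any gene under a TPM of 1, and others were added after their values were seen. Some genes of the wider pathway are not reported here.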

Additional observations from a re-analysis of the deposited data

Results flagged for a closer look

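Of 141 values tested for a library far from the other 3 by Dixon's criterion, 4 stood out, where chance alone gives about 1 in 20, and none of them was the level of 1 of the 37 genes. The log2 ratio of Nf1 to Rasa1 was -2.92 in replicate 1, the highest, and lay between -3.14 and -3.11 in the others. The adaptor Lat had a TPM of 417 in replicate 3, the lowest, and 457 to 458 in the others. Traf3, a restraint on Map3k14, had 66.3 in replicate 1, the highest, and 58.6 to 59.5 in the others. Myc had 508 in replicate 2, the lowest, and 553 to 556 in the others.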

How the results depend on the processing

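The number of the 37 genes called was 0 for every replicate under the alternatives run, a value near the share of all genes called and so no sign of stability, and the number of all genes called moved. For replicate 1 against the other 3 it was 9 as reported, 14 with upper-quartile scaling, 105 with no filter on low counts, 14 with DESeq2 and 23 to 341 when 1 of the other replicates was left out. For replicate 2 it was 0, 60 with no filter, 28 with DESeq2 and 3 to 52 with another replicate left out. For replicate 3 it was 3, 35 with no filter, 5 with DESeq2 and 16 to 21 with another left out, and for replicate 4 it was 0, 16 with no filter and 2 to 9 with another left out. The cause was not tested. The number of the 37 genes expressed was 36, and 32 at a TPM limit of 10.

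With the longest transcript as the length, 4 log2 ratios changed sign: Map2k2 to Map2k1 at 0.13, Map2k7 to Map2k4 at -0.0213, Dusp2 to Dusp5 at 0.11 and Rasa3 to Rasa1 at -0.24. Mean levels moved by factors of 0.737 to 1.91 with that length, over 1.5 times for Araf (133), Map2k2 (171) and Rasa2 (26.8), and by 0.763 to 1.12 with 1 replicate left out, or 0.954 to 1.05 without Spry2, whose counts were the lowest. No paired analysis was possible because there is only 1 group.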

Other observations

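The 3′ untranslated regions of some of these transcripts are rich in the pentamer ATTTA, a core of AU-rich elements, which are known to shorten the life of messenger RNAs. Per kilobase of this region in GENCODE M21 it occurred 6.88 times in Dusp2, 5.80 in Dusp1 and 6.04 in Rasa1, beside a median of 1.55 over the 37 genes and 1.31 over 19161 protein-coding genes. These 3 genes are named after their values had been seen. Map2k6 followed at 5.16, and the median over the 8 Dusp genes was 1.52. The mean TPM of Dusp1 and Dusp2 was 40.1 and 316, but their regions also differed in the longer form TTATTTATT, found 2 times in Dusp1 and 0 times in Dusp2. That form was in 7.43% of the 19161 genes and in 2 of the 37, Dusp1 and Braf. Whether these elements bear on level was not tested.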
